A study of Mus musculus with 10 samples.

Results

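Of 23473 probes on a mouse expression chip, 14 were at least 2 times their day 18 level at both earlier days. The cells were being driven from fibroblasts toward a cardiac-like state. The 14 probes were selected on intensities in the authors' value table. Empty values and values under 25 were set to 25, and a probe was kept when its day 3 and day 7 intensities were each at least 2 times its day 18 intensity, with GMT alone and with GMT/miR-133. The fall to day 18 is therefore how the probes were selected and not a finding. They make up 0.0596% of the chip, and 24 probes would pass on day 7 alone and 286 on day 3 alone. The files pair no probe with a gene, so probes are given by ID, a limited number for each group, and the rest as ranges.

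The tested cells were induced cardiomyocyte-like cells (iCM), 1 array per group. They came from mouse embryonic fibroblasts (MEF) that received Gata4, Mef2c and Tbx5 (GMT) by pMx retrovirus, alone or together with a synthetic mimic of mature miR-133a, and were sorted as α-MHC-GFP positive at days 3, 7 and 18. Because the sort keeps cells in which the reporter of the cardiac α-MHC promoter is on, each array describes the sorted cells and not the whole culture. A later round added a day 7 array of GMT/miR-133 with Snai1 and a second day 7 GMT/miR-133 array, whose description names GMT alone while its title and treatment name GMT/miR-133. Whole heart tissue and MEF, both untreated, were the controls, and strain and age are not given in the sources used here. No gene names were at hand to check iCM, heart or MEF against cell type markers.

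Gata4, Mef2c and Tbx5 are transcription factors of the developing heart, and their forced expression can turn part of a fibroblast population toward a muscle-like program. The microRNA miR-133 is abundant in heart and skeletal muscle and lowers the output of mRNAs that carry sites for it. Snai1 is a transcription factor that represses epithelial genes and drives epithelial-mesenchymal transition, and its mRNA is a reported target of miR-133. During such a conversion a transcript may come on and go off again, or a fibroblast transcript may be shut down late, and the levels in MEF and heart separate these patterns.

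The days of 4 arrays conflict between deposits. Each of the 10 columns of the value table is nearly a straight line of 1 scanner file, with a Pearson correlation that was 0.99999 after rounding. The first-round day 3 columns match the scans deposited as day 7 and the day 7 columns match those deposited as day 3, in both arms. Exchanging these days leaves the same 14 probes, and days below are those of the value table. By the matched scans, the day 7 and day 18 columns, heart and MEF were scanned in session 1, the day 3 columns in session 2 and the later round in session 3. Day 3 cannot be told apart from its session. Every array is alone in its group, so no value below has a replicate error unless one is given. In bulk samples, fewer cells of a type and less RNA per cell cannot be told apart.

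All 14 probes were bright when early. Their intensities ran from 139.8 to 2032.0 at day 3, from 74.2 to 1943.7 at day 7 and from 25 to 835.1 at day 18 with GMT/miR-133. With GMT alone they ran from 110.7 to 4218.8, from 97.5 to 1631.3 and from 27.2 to 763.0. The median probe of every column is at 25, so the floor of 25 lies at the middle of the chip. On the scans, all 14 exceeded the 95th percentile of the blank spots on all 10 arrays. On each array 77.8% to 87.7% of the chip's probes did so. Spots labelled as carrying no probe had medians at or near this cut, so passing it says little about the 14. As a common comparison, 7515 probes were at 50 or more on all 4 early first-round arrays, which a probe must reach to be chosen at all. Shares of other probes below refer to these unless another set is named.

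**Figure D1:**
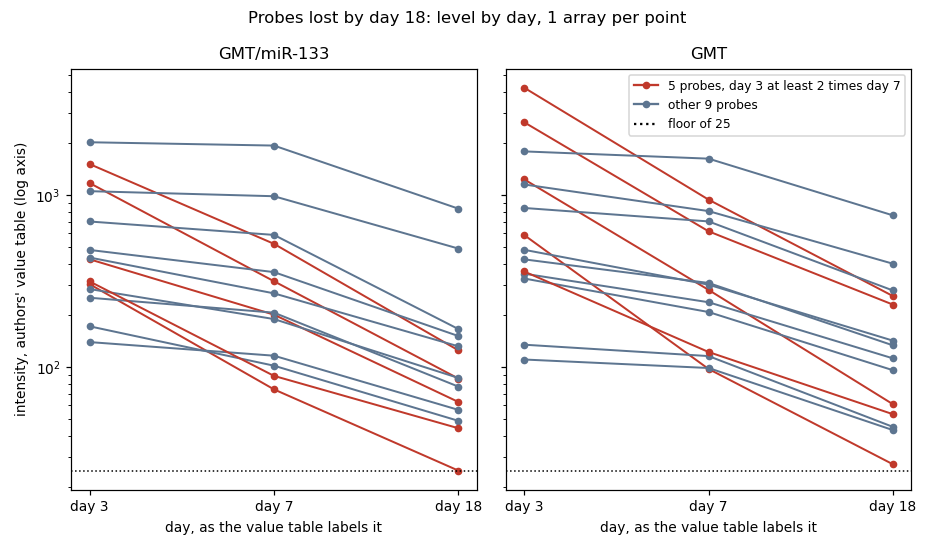
Intensity on the authors' value table (log axis) of the 14 probes at days 3, 7 and 18 as that table labels them, with GMT/miR-133 (left) and GMT (right), 1 array per point. Red lines mark the 5 probes that were at least 2 times higher at day 3 than at day 7 in both arms, grey lines the other 9, and the dotted line the floor of 25.

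The fall had 2 shapes, described here with no test, since all of these arrays chose the probes and the shares of other probes show nothing about the 14. In 5 of the 14, day 3 was also at least 2 times day 7 in both arms, against 0.506% of the 7515 probes, while the opposite order was met by none of the 14 and by 0.625%. These 5 were 6.76 to 13.7 times their day 18 level at day 3 with GMT/miR-133 and 6.76 to 21.6 times with GMT. The other 9 stayed within a factor of 1.05 to 1.70 between day 3 and day 7 with GMT/miR-133, and 1.10 to 1.60 with GMT, before falling. Day 3 was the higher of the early days in all 14. By the days of the scanner files the same arrays run the other way, with day 7 above day 3.

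The comparison of day 7 with day 18 uses columns of a single scan session. There the 14 ratios ran from 2.02 to 4.16 with GMT/miR-133, with a median of 2.34, and from 2.02 to 4.62 with GMT, with a median of 2.30. Among the 7515 probes, 0.319% reached 2 times in both arms. Most of the 14 thus lie close to the limit. The nearest inside are M300002656, whose lowest ratio was 2.015, and M200006566, at 2.016. The nearest outside are M400003897, whose lowest ratio was 1.99987, and M200014182, at 1.971.

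M200013648 had the highest lowest ratio of the 14, 3.64. It was at 1176.6, 315.8 and 85.8 at days 3, 7 and 18 with GMT/miR-133 and at 4218.8, 941.9 and 258.9 with GMT. Heart was at 128.8 and MEF at 1250.3. The probe thus lay above MEF at day 3 with GMT alone, was close to MEF at day 3 with miR-133, and was below heart at day 18 with miR-133.

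M200001893 had the highest MEF level of the 14. Its intensities at days 3, 7 and 18 were 1517.4, 521.2 and 125.2 with GMT/miR-133, and 2655.7, 616.4 and 230.9 with GMT. It was at 717.8 in heart and 1309.6 in MEF. Day 18 was below both controls, at 0.174 times heart with GMT/miR-133 and 0.322 times heart with GMT. M300002656 had the same feature, with 315.1, 88.9 and 44.1 with GMT/miR-133 and 359.9, 122.4 and 53.2 with GMT, against 176.2 in heart and 477.1 in MEF. These 2 of the 14 were at most the lower control divided by 2 on both day 18 arrays, against 0.852% of the 7515 probes. The day 18 arrays chose the probes for low values, so nothing is read from that share.

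M400014442, named after its values were seen, had the highest ratio of day 3 to day 18, 21.6 with GMT. It was at 303.7, 74.2 and 25 with GMT/miR-133 and at 586.4, 97.5 and 27.2 with GMT. Its day 18 value with GMT/miR-133 was 10.3 before the floor was set, so its 12.1-fold difference between day 3 and day 18 in that arm is at least that large. Heart was at 32.5 and MEF at 622.9. With GMT this probe was near MEF at day 3 and just under heart at day 18.

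M200001989 was above the floor on the 6 first-round iCM arrays and under it in both controls. It was at 423.8, 201.8 and 62.7 at days 3, 7 and 18 with GMT/miR-133 and at 1236.4, 281.2 and 60.8 with GMT. Heart and MEF were both under the floor, at 13.2 and 17.2 before it was set. The spots passed the blank-spot cut on both control scans, which does not show expression there. The median spot labelled as carrying no probe lay at that cut on both, at 16 in heart and 17 in MEF. M200005808 was the other probe under the floor in both controls, at 1.79 in heart and 6.52 in MEF. Its values were 433.9, 268.5 and 132.1 with GMT/miR-133 and 327.6, 209.1 and 95.9 with GMT, a gradual fall that left day 18 at least 5.28 times MEF with GMT/miR-133 and at least 3.84 times with GMT. Only 0.892% of the 7515 probes were under the floor in both controls. With no gene names, transcripts of the retroviral factors cannot be told apart from the cells' own at these probes.

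Heart was lower than MEF at most of the 14 probes. The ratio of heart to MEF had a median of 0.410 over the 14, against 0.798 over the 7515 probes. Heart was at least 2 times lower at 8 of the 14, against 20.7%, and at least 2 times higher at 1, against 8.9%. At 3 more the controls were within 2-fold, and at the remaining 2 both were under the floor.

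The 8 probes lower in heart span 0.0522 times MEF, at M400014442, to 0.414 times. M200004670 was under the floor in heart, at 11.0 before it was set, against 103.0 in MEF, so it was at most 0.243 times MEF. M200000240 was the single probe clearly higher in heart, with 546.9 in heart and 184.1 in MEF, a ratio of 2.97. It reached 703.0, 587.4 and 166.5 at days 3, 7 and 18 with GMT/miR-133 and 842.7, 703.7 and 279.0 with GMT. It was therefore above heart at both early days and fell to 0.304 times heart with GMT/miR-133 and 0.510 times with GMT at day 18. M300010530, with the next ratio, was nearly level between controls, at 89.6 in heart and 104.7 in MEF.

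**Figure D2:**
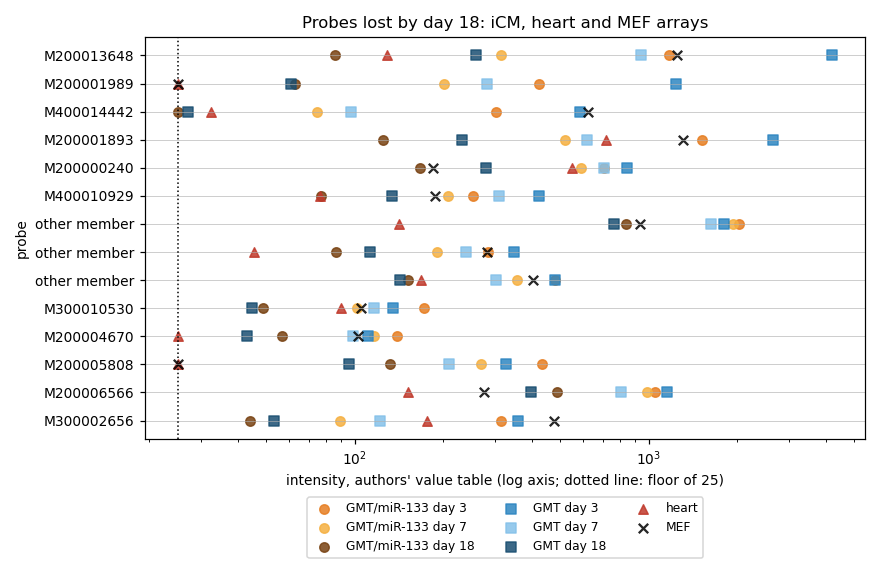
Intensity on the authors' value table (log axis) of each of the 14 probes on the 6 first-round iCM arrays, in heart (red triangles) and in MEF (crosses), from the highest to the lowest of the lowest early over day 18 ratios. The day 18 points lie left of MEF for most probes, and M200001989 and M200005808 have both controls on the dotted floor of 25.

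The controls did not choose the probes, but the iCM arrays set against them here did, as high at the early days and low at day 18. The shares of other probes are therefore given for scale and nothing is read from them. At 4 of the 14, all 4 early arrays were at least 2 times MEF, against 7.5% of the 7515 probes: M200001989, M200005808, M200000240 and M200006566. At 3 of these 4, M200000240 being the exception, the early arrays were also at least 2 times heart, against 4.01%. At day 18, M200001989 and M200005808 were still at least 2 times MEF on both arrays, against 8.29%. M200000240 was back near MEF, at 0.904 times with GMT/miR-133 and 1.52 times with GMT.

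M200006566 lay between. It was at 1055.2, 986.2 and 489.3 at days 3, 7 and 18 with GMT/miR-133 and at 1154.4, 808.1 and 399.3 with GMT, against 151.8 in heart and 275.7 in MEF. It thus stayed above both controls on all 6 arrays, by 1.77 times MEF with GMT/miR-133 and 1.45 times with GMT at day 18.

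At 7 of the 14, both day 18 arrays were at most MEF divided by 2, against 4.18% of the 7515 probes. That share too is given only for scale, as the day 18 arrays chose the probes for low values. At these 7 the lowest early level was 0.119 to 0.973 times MEF, so each had at least 1 early array below MEF. The lowest relative to MEF in both arms was M400014442, at most 0.0401 times MEF at day 18 with GMT/miR-133 and 0.0437 times with GMT. M200013648 was next with GMT/miR-133, at 0.0686 times, while with GMT M300002656, at 0.112 times, was next. No probe could meet both descriptions without a 4-fold fall on every pair, which none of the 14 showed. The other 3 probes met neither. One of them, M400010929, was at 253.2, 207.3 and 77.0 with GMT/miR-133 and at 423.4, 308.6 and 133.8 with GMT, against 76.2 in heart and 187.8 in MEF.

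Adding miR-133 to GMT is a contrast that did not choose the probes. The values used were log2 intensities of the scans, corrected on the blank spots and quantile-normalized, and the test was limma's, in a model holding the arm and the day. The 3 days take the place of replicates, and a p-value reflects how evenly the arms differed from day to day. None of the 14 passed at an adjusted p of 0.05, and 0.0% of 19932 tested probes did, while 1919 of these, 10 of the 14 among them, had an unadjusted p under 0.05. Among the 14, 7 were lower with miR-133 at all 3 days and 4 were higher at all 3, against 14.7% and 14.9% of the tested probes. The tested probes include many dimmer than the 7515 used elsewhere, and no share among those 7515 is given. Nothing is therefore read from these counts or from the 10 of 14. The median difference over the 14 was −0.215 (log2), against 0.003 over all tested probes, which include all 14. The median was −0.203, −0.138 and −0.032 on the pairs scanned as days 3, 7 and 18 (SD 0.086, n = 3 pairs).

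The median hides a split. M200013648 had the largest difference, −1.50 ± 0.091 (log2, SE; limma, adjusted p = 0.203). On the value table it was at 0.279, 0.335 and 0.331 times the GMT level at days 3, 7 and 18, so the difference was of a like size on each pair of arrays. M400010929 was lower by −0.60 ± 0.063 (log2, SE; limma, adjusted p = 0.203), at 0.598, 0.672 and 0.576 times the GMT level on the value table. Neither passed the test, though without background subtraction both did (limma, adjusted p = 0.00794 for M200013648 and 0.0489 for M400010929). The difference of M400010929 was −0.14 with the local background (limma, adjusted p = 0.997) and −1.17 with the later-round day 7 array (limma, adjusted p = 0.628). That of M200013648 was −2.39 with the later-round array (limma, adjusted p = 0.612).

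Among the probes higher with miR-133, M200005808 differed by 0.36 ± 0.043 (log2, SE; limma, adjusted p = 0.213), or 1.32, 1.28 and 1.38 times the GMT level on the value table. M200004670 differed by 0.25 ± 0.050 (limma, adjusted p = 0.337). Its intensities were 139.8, 116.5 and 56.4 with GMT/miR-133 and 110.7, 98.8 and 43.0 with GMT. These differences were of like size across days but not across settings. M200005808 was at 0.92 with the local background and 0.12 with the later-round day 7 array, and M200004670 at 0.68 and 0.53. By contrast, M200001989 was at 0.343 times the GMT level at day 3, 0.718 times at day 7 and 1.03 times at day 18 on the value table. Its arms were thus near level at day 18, and its difference over the days was −0.56 ± 0.30 (log2, SE; limma, adjusted p = 0.662). By the days of the scanner files, the differences on the scans were −0.40, −1.41 and 0.12 (log2) at days 3, 7 and 18. The order of its early pairs therefore depends on the day labels.

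**Figure D3:**
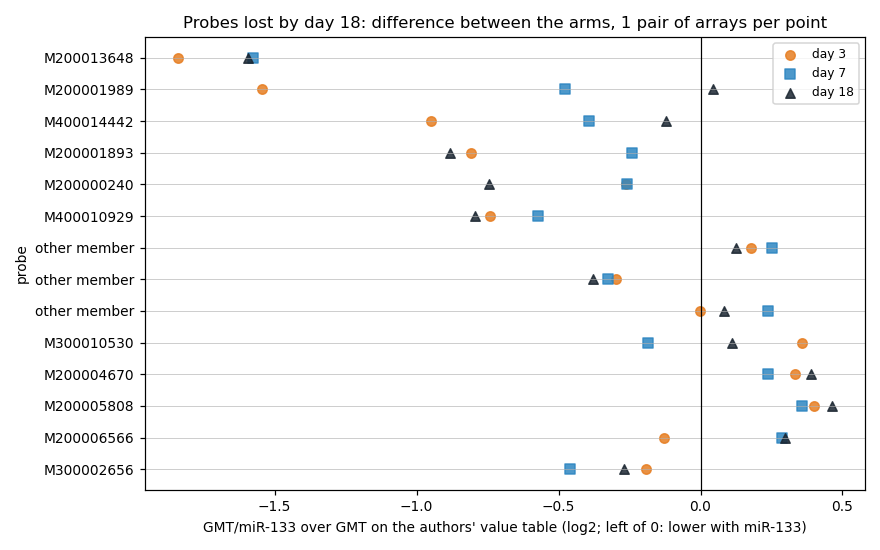
Ratio of GMT/miR-133 to GMT on the authors' value table (log2) for each of the 14 probes, 1 point per day. The 3 points of M200013648 lie furthest left, and those of M200005808 and M200004670 lie right of 0 at every day.

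The later-round day 7 GMT/miR-133 array was not used to choose the probes, and shows how they behave in another preparation. It was at least 2 times the day 18 GMT/miR-133 array at 4 of the 14, against 4.6% of the 7515 probes, with a median ratio of 1.83 against 1.14. The day 18 array in this ratio chose the probes for low values, so the excess may be built in and nothing is read from it. At 11 of the 14 the later-round array was above day 18, as it was at 66.8% of the 7515. The 4 probes were M200001893, M200000240, M200004670 and M300002656. M200005808, at 1.99964 times, was just under the limit.

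The pair of day 7 GMT/miR-133 arrays differed at some of these probes. The later-round day 7 GMT/miR-133 array was at least 2 times lower than the first-round one at 4 of the 14, against 3.63%, and at least 2 times higher at 1, against 2.69%. M200001989 was under the floor on the later array, at 22.1, against 201.8 on the first-round array. M200004670 ran the other way, at 297.6 on the later array against 116.5. The first-round array chose the probes for high values, so lower values on another array may be built in and nothing is read from these shares. Day, scan session and labels may all differ between these arrays, and their part was not tested.

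Snai1 was added to GMT/miR-133 in the later round, and neither later-round array chose the probes. With Snai1, 4 of the 14 were at least 2 times higher than on the later-round GMT/miR-133 array, against 1.45% of the 7515 probes, and 1 was at least 2 times lower, against 7.53%. The median ratio was 1.69 over the 14 and 0.856 over the 7515. Snai1 was the higher of the pair at 9 of the 14 and at 29.5% of the 7515. On the scans, none of the 14 was at least 2 times lower with either the blank-spot correction or no subtraction, and 5 and 7 were at least 2 times higher. The shares of other probes above are of the value table and none is given for the scans, so nothing is read from the scan counts.

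M200013648 was at 1089.2 with Snai1 and 152.8 without, a ratio of 7.13. M200001893 was at 1029.1 with Snai1 and 335.3 without, and M300002656 at 329.5 and 97.0. M300010530 was at 159.5 and 64.5. The first 3 belong to the 5 probes that were at least 2 times higher at day 3 than at day 7 in both arms, by the days of the value table. Of the rest of the 5, M400014442 was at least 1.26 times higher, its level without Snai1 being under the floor at 15.5. M200001989 was under the floor with and without Snai1. No share of other probes is given for this overlap, so nothing is read from it. M200013648 came close to its MEF level of 1250.3. In the other direction, M200005808 was at 101.8 with Snai1 and 264.2 without, a ratio of 0.385.

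Against the first-round day 7 GMT/miR-133 array, from another session, 3 of the 14 were at least 2 times higher with Snai1, against 1.92%, and 4 were at least 2 times lower, against 8.52%. That first-round array chose the probes for high values, so nothing is read from these shares. M200013648, at 3.45 times, and M300002656, at 3.70 times, were higher against both control arrays, and M200005808 was lower against both, at 0.379 times the first-round array. M200001893 was at 1.97 times the first-round array and M300010530 at 1.57 times, under the 2-fold limit. M200001989, under the floor at 23.3 with Snai1 and at 22.1 without, gave no ratio within the round.

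**Figure D4:**
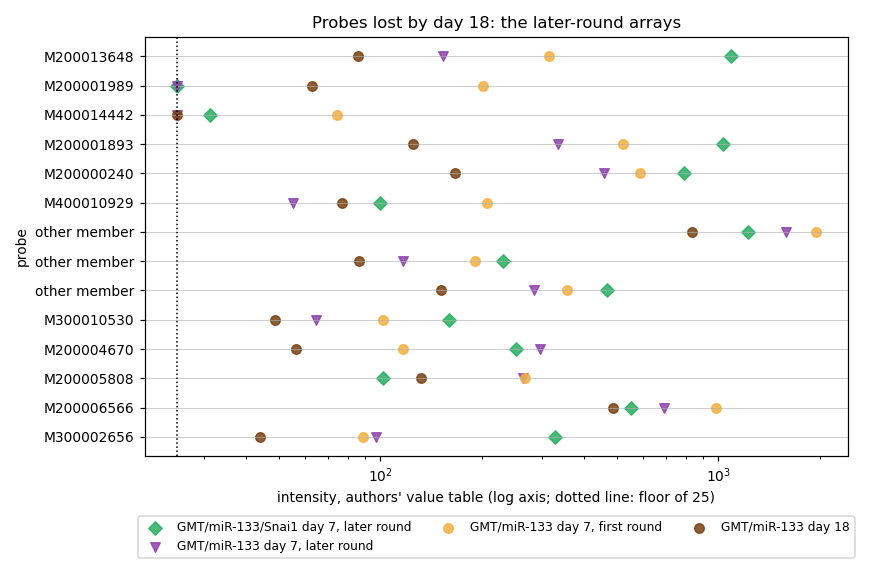
Intensity on the authors' value table (log axis) of the 14 probes on the later-round day 7 array with Snai1 (green diamonds) and the later-round day 7 GMT/miR-133 array (purple triangles), with the first-round day 7 and day 18 GMT/miR-133 arrays. M200013648 is at 1089.2 with Snai1 and 152.8 without, and M200005808 at 101.8 and 264.2.

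The 2-fold limit was met less often on other scales. On the scans corrected on the blank spots and quantile-normalized, 5 of the 14 still met the rule and no other probe did. The lowest ratio of each probe there ran from 1.49 to 2.89, with a median of 1.80, and was above 1 at all 14. With the local background in place of the blank spots, it ran from 0.826 to 2.26, and 11 of the 14 stayed above 1. These ratios use the arrays that chose the probes, so values above 1 are largely built in. They show how far the ratios depend on the processing and do not test the fall. The 14 spots lie in 9 of the 24 blocks of the chip, with at most 4 in a block. Of the 3 series of probe IDs, M2 holds 9 of the 14 and 34.2% of the chip, M3 holds 3 and 29.0%, and M4 holds 2 and 36.8%.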

How the data were processed

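RNA of 10 mouse samples was hybridised to 1-colour Toray chips, 1 array each. Per the file headers, the scanner files hold median Cy5 spot intensities with no normalization, for 27456 spots of which 23474 carry probes (23473 after averaging 1 repeated probe) and 2736 are blank. The authors' deposited value table holds linear intensities with a median of 25 per column, and its scaling is not stated. Members and levels come from this table. The 14 probes, the groups described and the tests were chosen with earlier results of these data known. For the arm test, intensities were corrected with limma's normexp model fitted to the blank spots (offset 50), quantile-normalized and log2-transformed (limma 3.58.1, R 4.3.3). Probes above the 95th percentile of blank spots on at least 3 of 6 iCM arrays were tested across all probes, with 2 residual degrees of freedom and Benjamini-Hochberg adjustment at 0.05. On data simulated for this comparison over 19932 probes, the test found 28 of 50 at 1.5-fold, 40 of 50 at 2-fold, 45 of 50 at 3-fold and 49 of 50 at 4-fold, with 6 false calls. All changed probes were in a single simulated data set, which eases the adjusted cut. The spreads were shuffled over probes, which loses their tie to intensity. These rates therefore do not give the power of the test on the real data, where it called no probe. Counts past 2-fold with 1 array per group have no test. The number of arrays limits the precision. Probes were named by a rule of at most 2 for each kind: highest lowest ratio, highest MEF level, highest heart to MEF ratio, under the floor in both controls, largest arm differences, and nearest to the limit. Gene lists and cell type markers could not be used, because the files pair no probe with a gene. Alternatives were another floor, fold, background, scaling, source of values, day 7 array and leaving out each day.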

Additional observations from a re-analysis of the deposited data

How the results depend on the processing

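The count of 14 probes depended on the processing. It was 2 at a 3-fold limit and 5 on the scans, with blank-spot correction or with no background subtraction, all of them among the 14. With the local background it was 5, of which 1 was among the 14, and with arrays centred on the median it was 3. These last 2 settings were chosen after seeing the data. Asking only for 1 early day, day 7 or day 3, gave 24 and 286. A floor of 50 kept 11. The count of members lower with Snai1 was 0 on the scans with either background, and that of members higher with Snai1 was 7 without background subtraction. No share of other probes stands beside these scan counts. The median arm difference (log2) was −0.105 with the local background, −0.320 on the value table and −0.592 with the later-round day 7 array, and it was −0.195 to −0.182 when 1 day was left out. Without background subtraction limma called 62 probes between the arms, 2 of them among the 14, M200013648 (−1.56, limma, adjusted p = 0.00794) and M400010929 (−0.66, limma, adjusted p = 0.0489). The adjusted p of M200013648 was 0.00794 to 0.765 over all settings. Other alternatives gave 0 calls, with 1080 to 2149 probes at an unadjusted p under 0.05. The cause of these shifts was not tested, apart from the settings that ask for more or fewer arrays or a larger fold. For 5 counts, heart above MEF, heart below MEF, early arrays above MEF, day 18 below MEF and the later-round array above day 18, a floor of 50 and both scan settings stayed within 1.5 times of the value printed. Besides these and the Snai1 counts within the later round, counts past 2-fold were not recomputed. Signal near the blank spots limits dim probes, and the number of arrays limits all values.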
